A study of Mus musculus with 12 samples.

Results

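The genes described here encode the proteins of the cytosolic ribosome. They were chosen by name as the rows of the count table whose symbol is Rpl or Rps followed by a number, with or without a final a, x or l, or is Rpsa or one of Rplp0, Rplp1 and Rplp2, leaving out rows named as pseudogenes with "-ps". This gave 82 genes of 48795 in the table, 32 of the small and 50 of the large subunit. Their levels were compared between 6 mice heterozygous for the Q140 knock-in allele and 6 wild-type mice, in the piriform cortex, the part of the olfactory cortex that receives most of the output of the olfactory bulb. Q140 is an allele of the mouse huntingtin gene with an expanded CAG repeat and is used as a model of Huntington's disease; the labels give no further allele, and each group holds 3 females and 3 males. All animals were on the C57BL/6 background and aged 12 months, and each library is a separate animal.

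The cytosolic ribosome translates messenger RNA into protein. Its small subunit reads the message and its large subunit joins the amino acids, and most of its proteins are each made from 1 gene, so that cells hold the protein genes in balance with each other and with ribosomal RNA. Their messages begin with a run of pyrimidines (C or T) known as a terminal oligopyrimidine tract, through which the mTOR kinase controls their translation, and they have been copied into the genome many times over, as processed pseudogenes that hold the coding sequence without introns.

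RefSeq promoter entries on GRCm38.p6, 250 bases before to 50 after an annotated start, were found for 60 of the 82 genes, in 72 windows. A C followed by at least 4 further pyrimidines began exactly at the annotated start in 13 of the 72 windows (18.1%), against 823 of 32851 windows of all genes (2.51%). An unbroken pyrimidine run of at least 8 bases lay within 10 bases before to 20 after the start in 31.9% of the windows of the ribosomal protein genes, against 11.2% of all windows. The windows below run from 10 bases before to 20 after the start, with the longest pyrimidine run in capitals. They are examples only, from 4 genes that were higher in Q140 mice (Rps9, Rps21, Rpl18 and Rpl4) and 3 that were not called. The latter are Rps6, whose protein is the target of the S6 kinases, and Rpl15 and Rps15a, which were among the lowest fold changes. All 3 begin with a C and at least 4 further pyrimidines, as did 12 of the 50 tested genes that were not called. Rps23, Rps16 and Rps13, with the lowest fold changes, do not, and their longest runs are 6, 4 and 6 bases. Rps3, Rpl23 and Rps4x, which were higher, have longest runs of 2, 3 and 4 bases. The run found depends on the annotated start: the windows of Rpl35a have longest runs of 4, 13 and 5 bases. Whether the annotated starts are those used in this tissue was not tested, so a short run does not show that a message lacks the tract.

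Rps9, chr7:3704031-3704060, plus strand: cttgTCTCTCTTTgtctcgggcctgagttc
Rps21, chr2:180257369-180257398, plus strand: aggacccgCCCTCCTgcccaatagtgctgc
Rpl18, chr7:45718061-45718090, plus strand: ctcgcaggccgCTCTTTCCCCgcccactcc
Rpl4, chr9:64173377-64173406, plus strand: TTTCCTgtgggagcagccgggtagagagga
Rps6, chr4:86857348-86857377, minus strand: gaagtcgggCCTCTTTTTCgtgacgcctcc
Rpl15, chr14:18270967-18270996, minus strand: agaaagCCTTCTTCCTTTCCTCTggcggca
Rps15a, chr7:118116128-118116157, minus strand: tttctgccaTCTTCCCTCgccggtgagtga

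Of the genes that were higher in Q140 mice, 8 had an entry, and in 1 of them a C with at least 4 further pyrimidines began at the annotated start, against 12 of the 50 tested genes with an entry that were not called. Motifs were searched on both strands of the 300-base windows, each counted without regard to the others. CCGGAAG, a site of ETS factors, was in 36.1% of the windows of the ribosomal protein genes and 8.86% of all windows, and AAGATGGCG, a site of YY1, in 6.94% and 1.40%. The Sp1 motif GGGCGG was in 58.3% and 35.7%, the E-box CACGTG in 11.1% and 7.15%, and TATAAA in 8.33% and 13.6%. These are matches of letters only. CCGGAAG was in 2 of the 8 genes that were higher and 22 of the 50 that were not called.

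Total counts were 19587208 to 35198602 per Q140 animal and 24068582 to 33191541 per wild type. Levels are given in CPM, counts scaled to the size of the library with TMM factors. Htt was lower in Q140 mice, at 143 to 164 CPM, than in wild types, at 180 to 204 CPM (log2 fold change -0.37, SE 0.0428, edgeR adjusted p = 0.000203). The ribosomal protein genes took 0.340 to 0.346% of the counts in Q140 females and 0.333 to 0.380% in Q140 males, against 0.305 to 0.319% in wild-type females and 0.293 to 0.315% in wild-type males. Summed over the genes, this was 0.350 ± 0.0172% in Q140 animals and 0.306 ± 0.0111% in wild types (SD, n = 6 each), with no overlap between the genotypes. In TMM-scaled CPM the sums were 3227 to 3676 in Q140 animals and 2940 to 3291 in wild types, and Q140 animal 5 lay below wild type 6. Leaving mitochondrially encoded reads out of the total, which took 7.02 ± 0.770% in Q140 animals and 6.36 ± 0.557% in wild types, the shares were 0.354 to 0.410% and 0.311 to 0.342% in the same order of genotypes. In whole tissue, a cell type that is present in a different proportion and a different amount of RNA per cell cannot be told apart.

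The ribosomal protein genes that passed the test were all higher in Q140 cortex, by small amounts. After a filter on low counts, 80 of the 82 genes were tested with edgeR's quasi-likelihood test with sex as a covariate. Of these, 16 were higher in Q140 mice and 0 were lower at an adjusted p of 0.05 over all 17725 genes tested, of which 4.50% were higher and 6.69% lower. At an unadjusted p of 0.05, 38 members were higher and 0 lower, against 12.3% and 14.3% of all genes. The median log2 fold change was 0.14 over the 80 genes and 0.00446 over all genes tested. The log2 fold change was above 0 in 72 of the 80, against 51.3% of all genes. With total counts in place of TMM scaling, 32 members were higher and 0 lower, while 1624 genes of all kinds were higher and 822 lower, against 797 and 1185 with TMM, and the median of all genes was 0.05. Log2 fold changes of the 80 genes ran from -0.13 to 0.25, and the highest, that of Rps4l, which did not pass the test, corresponds to 19.2%. The small and the large subunit were close to each other: 7 of 32 and 9 of 48 genes were higher, with medians of 0.14 and 0.14.

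**Figure D1:**
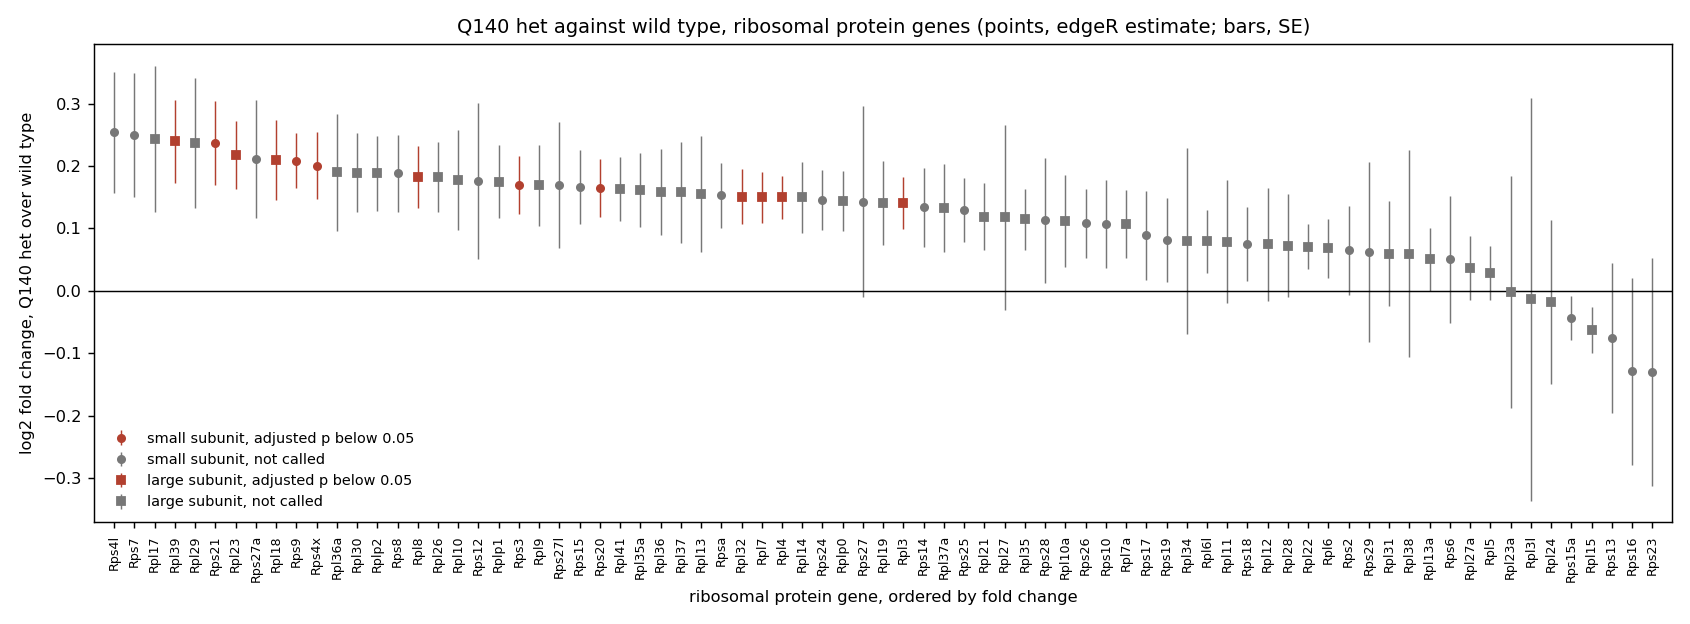
Log2 fold change of Q140 het over wild type for 77 of the 80 tested ribosomal protein genes, with the standard error as bars and the genes ordered by fold change; circles are small-subunit and squares large-subunit genes, and red marks an edgeR adjusted p below 0.05. The 13 red genes lie among values between 0.14 and 0.24, and 8 genes lie below 0.

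In each of the 16 genes that were higher, all 6 Q140 animals were above the wild-type mean. The call on the same animals largely fixes this, so it adds no support. All 6 were above that mean in 38 of the 80 tested genes, and the share over all genes is not given. The genotypes did not overlap at all in 3 of the 80, Rpl4, Rps20 and Rpl9, where 1.88% of all tested genes were without overlap and higher; 0 members were without overlap and lower, against 2.70% of all. Rpl9 was not called (adjusted p = 0.111). The number called depended on single animals. It was 8, 7, 5, 14, 23 and 6 without Q140 animals 1 to 6 in turn, where 3.08, 2.31, 2.64, 3.36, 6.03 and 3.65% of all genes were higher. It was 4, 9, 6, 14, 5 and 20 without wild types 1 to 6 in turn, where 2.54, 3.27, 2.49, 5.30, 3.35 and 3.62% of all genes were higher. The median log2 fold change of the members was between 0.11 and 0.16 in these 12 fits. With the name prefix of the animals as a covariate, which leaves 9 animals, 0 genes were called (18 of 17814 genes, 0.101%, were higher) and the median was 0.12.

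Of the genes with the smallest p-values, 4 are given animal by animal, in the order of animals 1 to 6 of each genotype. Rps9, which takes part in the accuracy of decoding, had 131, 122, 131, 121, 118 and 131 CPM in Q140 animals and 102, 107, 108, 119, 109 and 108 CPM in wild types. Wild type 4 was the only wild type above a Q140 animal, and the log2 fold change was 0.21 (SE 0.0437, edgeR adjusted p = 0.0083).

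Rpl4, which lines the tunnel through which the new protein leaves, had 357, 339, 354, 346, 327 and 346 CPM in Q140 animals and 299.5, 323, 316, 316, 303 and 307 CPM in wild types. All Q140 animals were above all wild types (log2 fold change 0.15, SE 0.0349, edgeR adjusted p = 0.0147). With a mean of 328 CPM it was the most heavily counted gene of the set. Rpl23, at the face that meets the small subunit, had 29.9, 31.2, 33.3, 31.0, 28.6 and 27.5 CPM in Q140 animals and 24.7, 26.0, 28.9, 26.9, 24.4 and 25.3 CPM in wild types. Wild type 3 lay above Q140 animals 5 and 6, and the log2 fold change was 0.22 (SE 0.0544, edgeR adjusted p = 0.0207). Rps4x, the X-linked copy of this small-subunit protein, had 64.7, 57.1, 68.0, 60.3, 60.5 and 64.0 CPM in Q140 animals and 50.4, 52.2, 50.3, 60.7, 54.6 and 57.7 CPM in wild types. Its groups overlapped at Q140 animals 2, 4 and 5 and wild types 4 and 6 (log2 fold change 0.20, SE 0.0537, edgeR adjusted p = 0.0288).

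**Figure D2:**
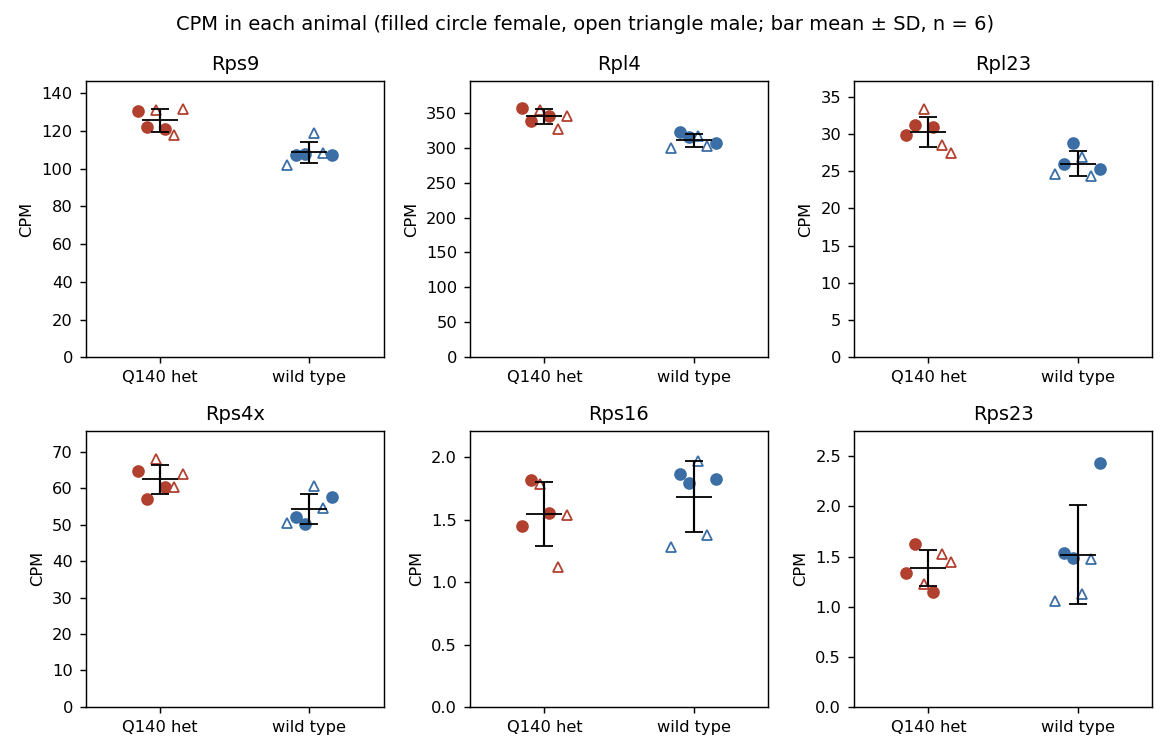
CPM of 6 genes in each animal (Q140 het left, wild type right; filled circles females, open triangles males; bars mean ± SD, n = 6, axes from 0). For Rps9, Rpl4, Rpl23 and Rps4x the Q140 mean is above that of wild types, and in Rps16 and Rps23, at 1.55 and 1.38 CPM in Q140 mice and 1.69 and 1.52 CPM in wild types, the groups overlap.

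The other genes that were higher and are named here had log2 fold changes of 0.14 to 0.24. Among small-subunit genes, Rps3, at the entry of the mRNA channel, averaged 174 ± 8.66 CPM in Q140 animals and 155 ± 9.64 CPM in wild types (edgeR adjusted p = 0.0322). Rps21 averaged 41.4 ± 1.99 CPM in Q140 animals and 35.1 ± 4.05 CPM in wild types (edgeR adjusted p = 0.0367), and Rps20 44.0 ± 1.61 CPM in Q140 animals and 39.2 ± 2.45 CPM in wild types (edgeR adjusted p = 0.0343). In the large subunit, Rpl8, near the peptidyl transferase centre, averaged 187 ± 9.66 CPM in Q140 animals and 165 ± 11.3 CPM in wild types (edgeR adjusted p = 0.0297). Rpl3, also near that centre, averaged 44.2 ± 1.88 CPM in Q140 animals and 40.1 ± 1.68 CPM in wild types (edgeR adjusted p = 0.0446). Rpl39, a small protein of the exit tunnel, had the largest fold change of the 16, at 20.0 ± 1.67 CPM in Q140 animals and 16.97 ± 1.15 CPM in wild types (log2 fold change 0.24, edgeR adjusted p = 0.0324). Rpl7, Rpl32 and Rpl18 had log2 fold changes of 0.15, 0.15 and 0.21, and Rpl18 lay just under the threshold (edgeR adjusted p = 0.04997). Over 29 alternative settings and animals left out, Rps9 passed in 27, Rpl23 and Rpl4 in 26, and the others named here in 12 to 20, with all fold changes above 0.

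Several genes with known further roles did not pass the test. The stalk genes Rplp0, Rplp1 and Rplp2, whose proteins draw elongation factors to the ribosome, had log2 fold changes of 0.14, 0.18 and 0.19 (edgeR adjusted p = 0.0717, 0.0694 and 0.0590). Rpsa, whose protein was also described as a laminin receptor, had 0.15 (edgeR adjusted p = 0.0763). Rps27a, which is made as a fusion with ubiquitin, had 0.21 (edgeR adjusted p = 0.170). Rpl5 and Rpl11, which carry the 5S ribosomal RNA and in cells under ribosomal stress bind Mdm2, had 0.03 and 0.08 (edgeR adjusted p = 0.726 and 0.657). Rps6 had 0.05 (edgeR adjusted p = 0.798). By reads per length (FPKM), the highest levels were those of Rplp1, at 377 ± 32.2 FPKM in Q140 animals and 324 ± 25.5 FPKM in wild types, then Rps15, at 283 ± 15.5 and 244 ± 23.5 FPKM in the same order of genotypes, and Rpl4, at 246 ± 7.9998 and 215 ± 6.19 FPKM.

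Levels differed widely among the members, whose proteins are mostly built into ribosomes in equal numbers. Mean FPKM over the 12 animals ran from 0.222, in Rpl3l, a gene of heart and skeletal muscle, to 350, in Rplp1, over the 80 tested genes. The 10 most counted genes held 47.7% of the reads of all 82. For each gene, every 75-base window of its coding sequence was looked for in the annotated transcripts of all other genes of GENCODE M21, and 77 of the 82 genes shared at least 1 window with an annotated pseudogene, with up to 64 pseudogenes for a gene. Median levels were lower where less of the coding sequence was unique, but Rpl3l, the lowest of all, had 100% unique windows. In 26 tested genes fewer than 1% of the windows were unique, and the median was 2.99 FPKM; in 36 genes with 1 to 50% unique windows it was 13.9 FPKM, and in 18 genes with 50% or more it was 51.2 FPKM. Spearman's rho between the mean FPKM and the unique share was 0.64 over the 80 genes, which share the libraries and differ in length. These are levels of the reads counted for a row, and whether they are levels of the message was not tested.

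**Figure D3:**
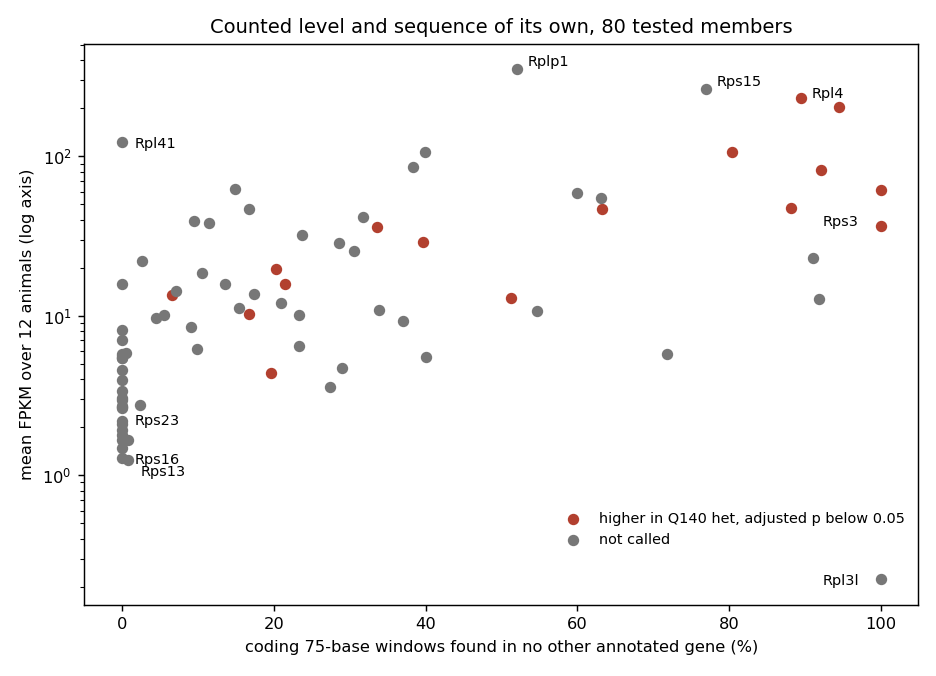
Mean FPKM over the 12 animals (log axis) against the percent of 75-base coding windows found in no other annotated gene, for the 80 tested ribosomal protein genes; red marks genes higher in Q140 het. Genes with no window of their own lie mostly below 10 FPKM, Rpl41 at 122 FPKM apart, and 0 of the 26 genes under 1% are red, against 9 of the 18 at 50% or more. Rpl41 has 78 coding bases in a transcript of 544, which give only 4 windows.

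The number called differed along the same scale. Of the 26 genes with under 1% unique windows, 0 were called (median log2 fold change 0.07); of the 36 with 1 to 50%, 7 were called (0.14); and of the 18 with 50% or more, 9 were called (0.17). Standard errors were larger in the genes under 1%, with a median of 0.0993 against 0.0539 in those of 50% or more. Rps3, which was called higher and had 100% unique windows, had a log2 fold change of 0.17. Rpl3l, also at 100% but thinly counted, with a mean of 0.365 CPM, had -0.01 and was not called. Gene models under 1000 bases had a median log2 fold change of 0.06 over 1645 tested genes of all kinds, against 0.02 for 1000 to 3000 bases and -0.01 for 3000 bases or more. With offsets that take out each library's trend with length and GC content, 14 members were called higher, 13 of them also among the 16, and the median was 0.12. Of all genes 4.91% were higher in that fit, and their median was 0.00603.

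The 5 lowest fold changes belonged to Rps23, Rps16, Rps13, Rpl15 and Rps15a, and none passed the test. Rps16, of the small subunit, had 1.45, 1.82, 1.79, 1.55, 1.12 and 1.54 CPM in Q140 animals and 1.28, 1.87, 1.80, 1.97, 1.38 and 1.83 CPM in wild types (log2 fold change -0.13, SE 0.150, edgeR adjusted p = 0.627). Rps23, which lies by the decoding centre, had 1.34, 1.62, 1.23, 1.15, 1.52 and 1.44 CPM in Q140 animals and 1.06, 1.53, 1.49, 1.13, 1.48 and 2.43 CPM in wild types (log2 fold change -0.13, SE 0.183, edgeR adjusted p = 0.698). Both sets of values overlapped throughout, and wild type 6 stood apart in Rps23, where the fold change without it was 0.03. Rpl15 and Rps15a were better counted, at 36.9 ± 1.36 and 67.2 ± 1.48 CPM in Q140 animals and 38.5 ± 0.771 and 69.3 ± 2.52 CPM in wild types. In both, all 6 Q140 animals were below the wild-type mean, with log2 fold changes of -0.06 and -0.04 (edgeR adjusted p = 0.297 and 0.456).

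For Rps16 and Rps23 almost all reads stood in rows named as pseudogenes. Rps16-ps2, a processed pseudogene on chromosome 5 (129128077 to 129128517, minus strand, GRCm38), has the 441 coding bases of Rps16 (chromosome 7, 28350652 to 28353155) without a difference. In the same way, Rps23-ps1 on chromosome 3 holds 425 of the 432 coding bases of Rps23 (chromosome 13), and Rps6-ps4 on chromosome 2 all 750 of Rps6 (chromosome 4). The first 60 coding bases of Rps16 are printed with those of the pseudogene, and those of Rpl6 and of its retained copy Rpl6l below them, to show how little separates such rows. Capitals mark the bases that differ within a pair.

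Rps16: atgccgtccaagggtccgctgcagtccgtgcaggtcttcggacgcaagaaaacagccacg
Rps16-ps2: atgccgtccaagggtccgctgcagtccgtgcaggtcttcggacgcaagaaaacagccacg
Rpl6: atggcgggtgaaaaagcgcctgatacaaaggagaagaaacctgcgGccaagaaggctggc
Rpl6l: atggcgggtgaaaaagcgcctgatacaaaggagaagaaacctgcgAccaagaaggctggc

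The row of Rps16 held 574 reads over the 12 animals, 2.18% of those in Rps16 and the rows named as its pseudogenes. Its pseudogene rows together had 77.1 ± 3.48 CPM in Q140 animals and 66.8 ± 4.03 CPM in wild types. The corresponding rows of Rps23 had 73.3 ± 4.62 CPM in Q140 animals and 64.1 ± 4.68 CPM in wild types, against 521 reads in the row of Rps23 itself. Of 275 rows named as ribosomal protein pseudogenes, 72 were tested, 12 were higher in Q140 mice and 0 lower, with a median log2 fold change of 0.16. The 275 rows held 441063 reads, against 1169372 in the 82 genes, and 19 of the 59 genes with such rows had more reads in them than in their own.

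When the reads of a gene and of the rows named as its pseudogenes were summed, a comparison chosen after these values were seen, 24 genes were higher and 0 lower, where 4.51% of all genes were higher. The 16 genes were all among the 24, the median log2 fold change was 0.15, and 77 of the 80 fold changes were above 0. Rps16 was then higher by 0.20 (SE 0.0461, edgeR adjusted p = 0.0141) and Rps23 by 0.19 (SE 0.0551, edgeR adjusted p = 0.0429), so the direction of both turned. Rps6 was higher by 0.18 (SE 0.0381, edgeR adjusted p = 0.00945), and Rpl23a, whose own row had -0.00208, by 0.19 (SE 0.0526, edgeR adjusted p = 0.0350). Rps13 had a fold change of 0.06 (edgeR adjusted p = 0.618), Rps15a of 0.00 (edgeR adjusted p = 0.990) and Rpl15 of -0.06 (edgeR adjusted p = 0.311). Which row a read belongs to cannot be told from a coding sequence that both rows share.

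**Figure D4:**
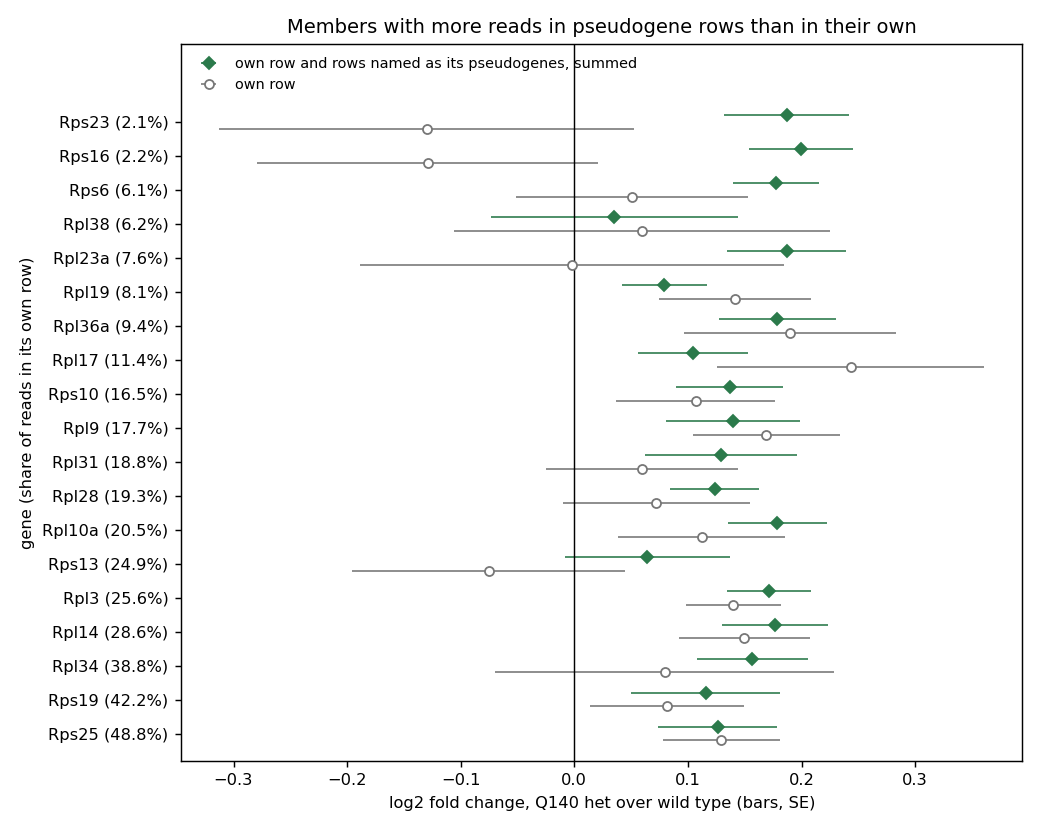
Log2 fold change of Q140 het over wild type, with its standard error, for the 19 genes with more reads in rows named as their pseudogenes than in their own; green diamonds are the summed rows and open circles the gene's own row, and the percentage is the share of reads in the own row. In Rps23 and Rps16 the own rows lie at -0.13 and the summed rows at 0.19 and 0.20.

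Of the rows with a final l in their names, Rpl3l, Rpl10l and Rpl39l had almost no reads. In the mouse Rpl3l belongs to heart and skeletal muscle and Rpl10l and Rpl39l to the testis. Rpl10l was listed at 0 in all 12 animals and Rpl39l had 4 reads in all, at 0.0745 CPM in Q140 animal 3 and 0.0346 and 0.0344 CPM in wild types 3 and 5, and at 0 in the others, and both were removed by the filter. Rpl3l had 0.232, 0.455, 0.447, 0.403, 0.230 and 0.447 CPM in Q140 animals and 0.415, 0.460, 0.242, 0.126, 0.585 and 0.338 CPM in wild types, and the groups overlapped (log2 fold change -0.01, SE 0.323, edgeR adjusted p = 0.985). The coding sequences of Rpl3l, Rpl10l and Rpl39l were 74.9%, 84.8% and 85.3% identical to those of Rpl3, Rpl10 and Rpl39. Rpl10 averaged 6.43 ± 0.537 CPM in Q140 animals and 5.69 ± 0.357 CPM in wild types (log2 fold change 0.18, edgeR adjusted p = 0.174).

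Rps27l, the paralog of Rps27 (76.1% identical), had 4.73, 4.81, 5.33, 4.60, 4.91 and 5.41 CPM in Q140 animals and 3.47, 4.75, 4.56, 4.44, 3.96 and 5.27 CPM in wild types. Wild types 2 and 6 lay within the Q140 range (log2 fold change 0.17, SE 0.101, edgeR adjusted p = 0.308). The row of Rps27l had more reads than that of Rps27, with 1671 against 617. Of the windows of Rps27l 71.8% were unique, against 0% of those of Rps27. Rps27 shares windows with Rps27rt, a protein-coding gene outside the naming rule. The row of Rps27rt had 44.3 CPM in Q140 animals and 37.6 CPM in wild types, and was not summed with that of Rps27. Rps4l, annotated as a transcribed processed pseudogene and 80.1% identical to Rps4x, had 12.7, 11.4, 14.7, 9.69, 15.3 and 15.1 CPM in Q140 animals and 10.3, 9.80, 12.3, 12.5, 10.3 and 10.2 CPM in wild types. Q140 animals 2 and 4 lay within the wild-type range or below it, the other 4 above (log2 fold change 0.25, SE 0.0965, edgeR adjusted p = 0.109). Rpl6l, a processed pseudogene named here after its values were seen, had 23.3 ± 0.939 CPM in Q140 animals and 22.0 ± 1.33 CPM in wild types (log2 fold change 0.08, edgeR adjusted p = 0.337), beside 0.07 for its parent Rpl6.

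Each animal was set against the wild-type mean of each gene in log2 CPM. The median deviation over the 80 genes was 0.10 to 0.15 in Q140 females and 0.05 to 0.25 in Q140 males, against 0.02 to 0.09 in wild-type females and -0.07 to 0.02 in wild-type males. Q140 animal 5, at 0.05, lay below wild type 6, at 0.09, and the other 5 Q140 animals lay above every wild type. Between 59 and 73 of the 80 genes were above the wild-type mean in a Q140 animal, and between 17 and 60 in a wild type. Rpl29, named here after its values were seen, had 50.6 to 61.2 CPM in Q140 animals, against 46.0 to 52.7 CPM in wild types 1 to 5 and 29.1 CPM in wild type 6.

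**Figure D5:**
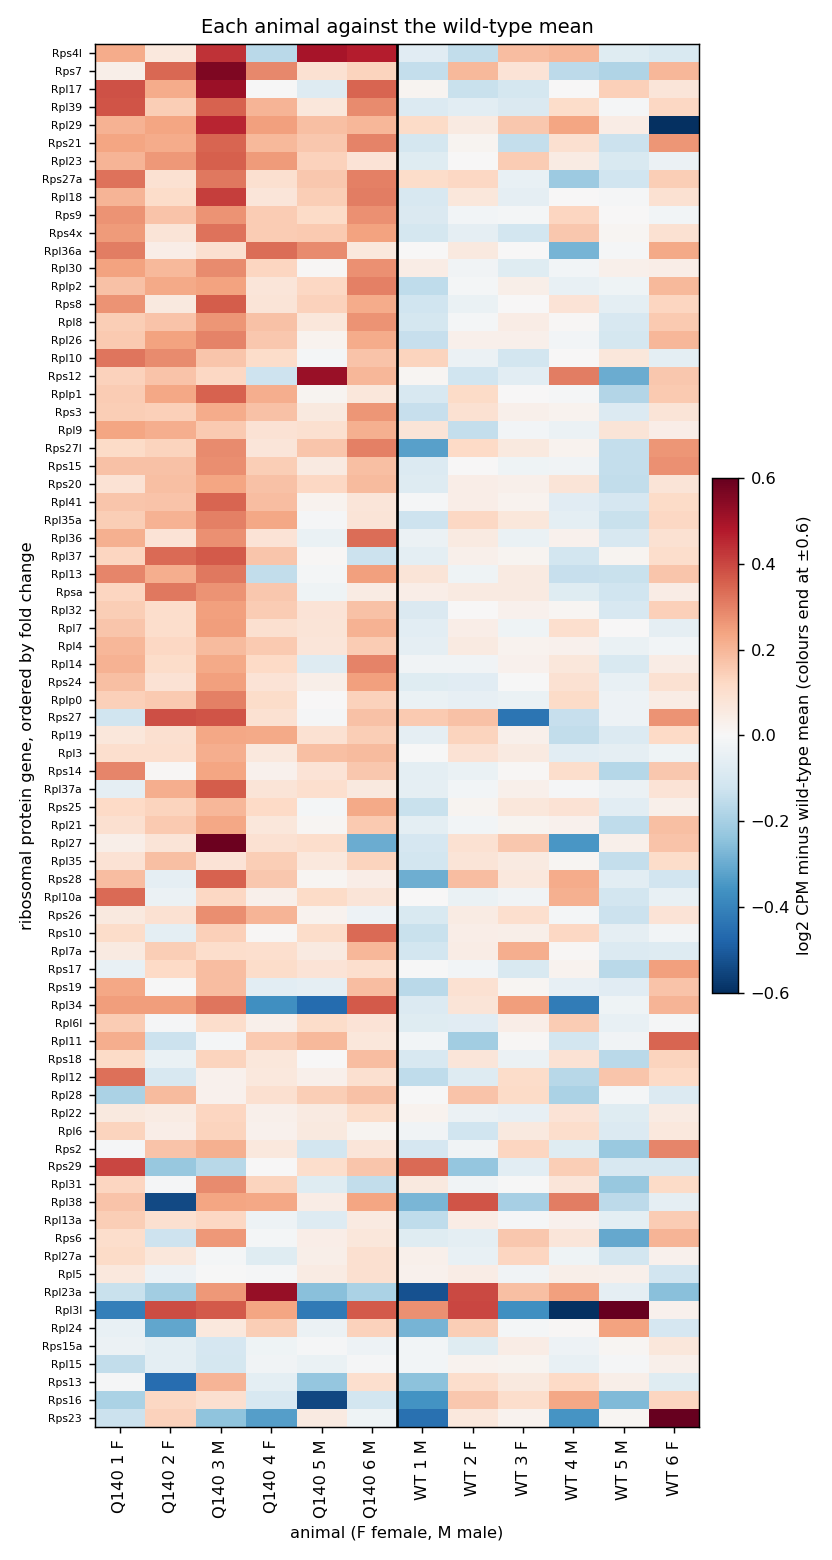
Log2 CPM of 77 of the 80 tested genes in each animal minus the wild-type mean of that gene, Q140 het animals left of the line and wild types right, genes ordered by fold change. Between 59 and 73 of the 80 tested genes are above the wild-type mean in each Q140 animal; Rpl29 in wild type 6 and the thinly counted genes at the bottom stand out.

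Within females 0 genes were called higher and 0 lower, where 2.83% of all genes were higher and 4.21% lower, while 12 members were higher at an unadjusted p of 0.05, against 11.0% of all genes, and DESeq2 called 3. The count was 1 without Q140 animal 5 and 2 without wild type 4, both males. The median log2 fold change was 0.07, and it was above 0 in 63 members and 50.9% of all genes. The member with the smallest p was Rps9, with 0.21 (SE 0.0627, edgeR adjusted p = 0.0591). Within males 1 gene was higher and 0 lower, where 0.440% of all genes were higher and 0.959% lower. This was Rpl3, with 0.23 (SE 0.0479, edgeR adjusted p = 0.0331), and 39 members were higher and 0 lower at an unadjusted p of 0.05, against 7.48% and 9.11% of all genes. The male median was 0.20. The number called was 14 without Q140 animal 5, 4 without wild type 4, 3 without wild type 6, 0 without Q140 animals 2, 3 or 6 or without wild types 1, 3 or 5, and 16 with DESeq2. The shares of all genes called in these refits, in either sex, are not given here. Whether the members differ from other genes in them cannot be told.

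The male fold change was above the female one in 66 of the 80 genes and in 49.3% of all genes, with a median difference of 0.12, males minus females. No gene passed the test of that difference, as none did of all 17725 genes (0.00%), and 3 members were higher and 0 lower at an unadjusted p of 0.05, against 4.72% and 4.49% of all genes. The smallest p was that of Rpl3, at a difference of 0.19 (SE 0.0673, edgeR adjusted p = 0.471), then Rps27l, at 0.44 (edgeR adjusted p = 0.482), and Rps4l, at 0.38 (edgeR adjusted p = 0.522). DESeq2 called 0 members in the difference. Between males and females of both genotypes, 0 members were called in either direction, where 0.197% of all genes were higher in males and 0.457% lower, and 1 member was higher and 1 lower at an unadjusted p of 0.05, against 6.95% and 6.52%. The median log2 fold change was -0.03, with 30 members and 49.1% of all genes above 0.

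Other genes of protein synthesis were examined from lists of textbook members. Of 3 ribosomal proteins under other names, Rack1, a scaffold on the small subunit, was higher (125 CPM in Q140 animals, 108 CPM in wild types, log2 fold change 0.21, edgeR adjusted p = 0.0109), while Fau had -0.09 and was not called. Of 4 paralogs outside the naming rule, 1 was higher, Rps27rt (log2 fold change 0.24, edgeR adjusted p = 0.00838). Of 8 elongation factor genes, 3 were higher and 0 lower: Eef1a1, which brings aminoacyl-tRNA to the ribosome, by 0.25 (edgeR adjusted p = 0.00223), Eef2, which moves the ribosome along the message, by 0.17 (edgeR adjusted p = 0.0197), and Eef1b2 by 0.15 (edgeR adjusted p = 0.0336). Eef1a2, the form of mature neurons and muscle, had -0.05 (edgeR adjusted p = 0.642).

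Of 8 other messages with a known terminal oligopyrimidine tract, 2 were higher and 1 lower. Gas5, a host gene of small nucleolar RNAs, was higher by 0.19 (edgeR adjusted p = 0.0193), Vim, an intermediate filament of glia and vessels, by 0.56 (edgeR adjusted p = 0.0201), and Nap1l1, a histone chaperone, fell by 0.13 (edgeR adjusted p = 0.0380). Of 30 initiation factor genes, 0 were called either way (median 0.04), as were 0 of 16 genes of mTOR signalling and its regulators of these messages (0.00), 0 of 47 genes of ribosome assembly and RNA polymerase I (0.01) and 0 of 7 of the Myc family (-0.04). At an unadjusted p of 0.05, 1 initiation factor gene was higher and 1 lower, 1 and 2 of the mTOR list, 2 and 3 of the assembly list, and 0 and 2 of the Myc list. Among 81 tested genes of the mitochondrial ribosome, a separate set with its own proteins, 1 was higher, Mrpl33 (log2 fold change 0.32, edgeR adjusted p = 0.00930), and 0 were lower, with a median of 0.05. The difference between that set and the cytosolic one was not tested.

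Markers of cell types moved with genotype beside these values. The summed level of 5 excitatory neuron markers was 4180 to 4570 CPM in Q140 animals and 5032 to 6691 CPM in wild types, without overlap, and 2 of the 5, Camk2a and Slc17a7, were lower. The 5 oligodendrocyte markers summed to 3624 to 5210 CPM in Q140 animals and 3234 to 4591 CPM in wild types, with 2 of 5, Mag and Mog, higher. Of 6 inhibitory neuron markers 2 were lower, and the list summed to 507 to 652 CPM in Q140 animals and 531 to 752 CPM in wild types. Of 5 microglia markers 1 was higher, with sums of 247 to 294 CPM in Q140 animals and 221 to 279 CPM in wild types. Astrocyte, precursor, vessel, meningeal, choroid and striatal lists had 0 called markers, and no marker was at 0 in all animals. The meningeal list spanned 41.2 to 119 CPM in Q140 animals and 11.5 to 120 CPM in wild types. The part of cell composition in the levels of the ribosomal protein genes was not tested.

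The genotypes were not spread evenly over the names of the animals. Their name numbers, whose meaning the labels do not state, held both genotypes in 2 cases. In number 150, 59 of 80 members were higher in the Q140 animal, with a median difference of 0.10 log2 CPM, and in number 161, 66 of 80 were higher in its 2 Q140 animals than in its 1 wild type, with a median of 0.11. Within the prefix RFQ, 3 Q140 animals against 1 wild type, and within RFckQ, 1 against 4, 67 of 80 members were higher in each, with medians of 0.12 and 0.12. By plate column, 72 of 80 members were higher in Q140 animals of column 8 and 69 of 80 in those of column 9, with medians of 0.16 and 0.09. The median difference over all genes lay between -0.00876 log2 CPM, in number 161, and 0.00949 log2 CPM, within RFckQ. The share of all genes that were higher in each split is not given. Within RFckQ and in both plate columns the sexes were unevenly divided between the genotypes, so sex and genotype are mixed there. These values have no test.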

How the data were processed

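The deposited count table holds reads per gene and animal as whole numbers that were not normalized. The authors' FPKM values, also deposited, come from these counts, since the gene length that both imply varied between animals by a coefficient of variation of at most 5.32e-09 over 15054 genes. Per the submitters' processing notes, the tools included HTSeq 0.12.3, STAR 2.7.5c and SAMtools 1.10, and the builds GRCm38 and mm10. Not given in the sources used here were the annotation, the strand setting and how reads with several alignments were treated; overlapping genes and near-identical copies therefore cannot be told apart. The labels' protocols name Qiagen RNeasy for the RNA and a stranded Illumina TruSeq kit for the libraries, all on plate 1.

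Counts were tested with edgeR 4.0.16 (R 4.3.3): TMM factors, its default filter by genotype, the quasi-likelihood test with sex as covariate, and 4 groups of sex and genotype for the comparisons within and between sexes. Adjusted p-values are Benjamini-Hochberg over all genes tested, two-sided. SE is the absolute log2 fold change divided by the square root of F. CPM uses TMM-scaled library sizes. On simulated counts for 17545 genes, the genotype fit recovered 43.9%, 83.6% and 93.9% of genes changed 1.25, 1.5 and 2 times, with 6 of 153 calls false. The estimates of all tested members lie below 1.25 times, so recovery at changes of their size was not simulated. Alternatives used DESeq2 1.42.0, limma 3.58.1 and other settings given at the end. Of the 48795 identifiers, 48349 were in GENCODE M21 (GRCm38), used for coordinates and coding sequences; promoter windows are RefSeq's.

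The members and the lists were chosen with earlier results of these data known, the pseudogene rows after their values were seen. Genes were named by a rule: those called, the 5 lowest fold changes, the 3 highest and 3 lowest FPKM, the suffix-l rows and parents, the stalk genes, Rpl5, Rpl11, Rps6, Rpsa, Rps27a and the smallest p per sex. Some genes that the rule names are not reported here, though the counts include them. No sequence from chromosome 18 is printed.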

Additional observations from a re-analysis of the deposited data

Results flagged for a closer look

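In 72 groups of 6 animals (35 named genes that were tested and the summed share of the ribosomal protein genes, each genotype), 3 had an animal whose distance from the nearest of the others exceeded Dixon's critical share of the whole range; chance gives this in about 5% of such groups. All 3 were wild type 6, a female of the FMQ name prefix and the highest of its group. Rpl11 stood at 8.82 CPM there, against 5.97 to 6.95 CPM in the other wild types. Rps15 stood at 188 CPM, against 141 to 156 CPM. Rps23 stood at 2.43 CPM, against 1.06 to 1.53 CPM.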

How the results depend on the processing

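In the genotype comparison, 16 members were called higher. The count was 34 with log2 FPKM under pseudocounts of 0.1 and of 1, where 8.86% and 8.85% of all genes were higher and the median log2 fold change of all genes was 0.05 and 0.04. It was 32 with total counts only (9.16% of all genes, median 0.05) and 10 without wild types 3 and 6 (1.66%). It was 0 with the name prefix as covariate (0.101%) and 0 with the name number as replicate block (0.00552%). Other settings gave 12 to 24, with 23 by DESeq2 (5.61% of all genes), 23 by voom (5.99%) and 12 with plate column (3.48%), and 0 members were lower under any setting run. With each animal left out, the count was 4 to 23, and the median log2 fold change 0.11 to 0.16. In females the count was 3 with DESeq2, 2 with total counts, 1 with length and GC offsets, 1 with females alone, and 0 to 2 with an animal left out. In males it was 16 with DESeq2, 14 with total counts, 0 with males alone, and 0 to 14 with an animal left out. For these counts within a sex the shares of all genes are not given. No member was called in the difference between sexes with any animal left out.

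Directions turned in 7 of the 35 tested genes that were named. Rpl3l had 0.00184 with DESeq2, 0.000184 with voom, 0.0906 and 0.0163 with FPKM at pseudocounts of 0.1 and 1, 0.623 with the prefix, 1.01 with the name number as replicate block, 0.0318 with total counts and -0.179 to 0.182 with an animal left out. Rpl5 and Rps6 had -0.00258 and -0.00363 with the prefix, and Rpl5 -0.000419 without wild types 3 and 6. Rps6 had -0.0258 with that block. It ran from -0.0113, without wild type 5, to 0.0954 with an animal left out. Rps15a had 0.00348 and 0.00321 with FPKM, 0.00313 with total counts and 0.000928 with pseudogene rows summed. Rps13, Rps16 and Rps23 had 0.0641, 0.199 and 0.187 with those rows summed. Rps23 had 0.0601 without wild types 3 and 6, and -0.201 to 0.0324, without wild type 6, with an animal left out. The cause was not tested, except that summing adds the reads of the pseudogene rows.

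The labels number no replicates, and what the number in an animal's name marks is not stated. With that name number as a replicate block, chosen after the data were seen, 5 animals of the 2 numbers held by both genotypes could be used, and 0 members were higher or lower, with 2 higher at an unadjusted p of 0.05. Of 18126 genes, 1 was higher in that fit (0.00552%), and the median log2 fold change of the members was 0.11. Depth limits genes such as Rps16, with 574 reads over 12 animals; 3 animals per sex limit the comparisons within sexes. Sequence sharing was counted over annotated transcripts only.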
